A study of Mus musculus with 24 samples.

Results

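The genes described here encode Polycomb group proteins and comprise 10 of the 22380 protein-coding genes of the GENCODE M1 annotation on mm9. They were chosen by name as subunits of Polycomb repressive complexes 1 and 2 (PRC1 and PRC2), not by their measured values. The PRC2 genes were Ezh1, Ezh2, Eed, Suz12 and Jarid2, and the PRC1 genes were Ring1, Rnf2, Bmi1, Cbx2 and Cbx7. Short tags without strand were sequenced from RNA of differentiated CCE cells and of mouse fetal head (FH) after removal of ribosomal RNA. CCE is a feeder-independent mouse embryonic stem cell line of strain 129/SvEv, and here LIF had been withdrawn and 0.266 µM retinoic acid added for 5 days. FH was dissected from FVB/N mice at 14.5 days postcoitum and holds brain, muscle, cartilage, skin, blood and other tissues. Neither group carried an engineered allele, but strain, cell culture and tissue differed together between the groups, so their parts in any difference cannot be told apart. With the RiboMinus kit 4 cDNA preparations were made from CCE and 3 from FH and sequenced at Vienna-IMP and at Nijmegen, and the Ribo-Zero kit gave 1 library of each tissue from other RNA. The CCE preparations are technical replicates and no separate animals are stated for FH, so p-values measure only the spread between these preparations. RNA hydrolysis and cDNA shearing were applied to the same depleted RNAs, so preparations from 1 RNA are not independent.

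Polycomb group proteins keep genes silent through development by marking chromatin. PRC2 methylates lysine 27 of histone H3 through Ezh1 or Ezh2, which act only when bound to Eed and Suz12. Canonical PRC1 holds a chromobox protein such as Cbx2 or Cbx7, which binds that mark, and a pair of RING proteins that place ubiquitin on histone H2A. In embryonic stem cells both complexes sit on genes of later lineages, and in the fetal brain they keep neural progenitors dividing.

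The 14 RiboMinus libraries held 920424 to 2473448 unique tags each, and the Ribo-Zero libraries held 28708715 in CCE and 48426051 in FH. Exons of protein-coding genes took 64.0% to 71.1% of RiboMinus tags in CCE libraries and 43.7% to 60.1% in FH libraries. Of 9 primitive endoderm markers 8 (7 when scaled to exon tags or by median ratios) were lower in FH than in CCE, with summed levels of 226.0 to 419.0 RPKM in CCE and 64.72 to 92.69 RPKM in FH preparations. Of 4 pluripotency markers 3 were lower and Sox2, which is also neural, was higher, with sums of 41.17 to 51.84 RPKM in CCE and 20.49 to 44.39 RPKM in FH. By Ribo-Zero Sox2 went the other way, at 42.7 RPKM in CCE and 21.4 RPKM in FH. No tag fell in Pou5f1, Zfp42 or Gata4 in FH RiboMinus preparations. By RiboMinus all 7 neural markers tested, Sox2 included, were higher in FH. Their list summed to 372.1 to 615.0 RPKM in FH against 48.01 to 56.31 RPKM in CCE. Markers of red blood cells (3 of 3, summed 813.0 to 1327.0 RPKM in FH and at most 1.52 RPKM in CCE) and of muscle (4 of 4, 135.3 to 188.7 against 23.04 to 32.74 RPKM) were also higher in FH. So were both markers of cartilage, epithelium, lens and endothelium, which summed to 29.68 to 171.4 RPKM a list in FH and at most 2.62 RPKM in CCE. In CCE RiboMinus preparations no tag fell in Hba-a1, Hbb-b1, Myh3, Myog, Krt5 or Crybb1. The FH1 hydrolysed library of Vienna-IMP is named in the study as a likely technical outlier. Without it the members lower in FH were the same, Eed (-1.32), Jarid2 (-1.18) and Cbx7 (-5.03 on the log2 scale). In such bulk samples fewer cells that transcribe a gene and less RNA of it per cell cannot be told apart, and this holds for every difference below.

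Short stretches of the start regions are shown for Ezh2 and Suz12, which held a word searched for below, and for Cbx7, picked by name. RefSeq start regions of 250 bases before to 50 after each gene's start (table build GRCm38.p6) were held for 9 of the 10 members, with 2 starts for Jarid2, and the stretches were located in mm9. All 10 regions were rich in CG pairs, with 17 to 41 and a median of 27, against a median of 7 over 32851 start regions, of which 31.4% had at least 17. The words TTTCCCGC, TTTGGCGC, TTTCGCGC and TTTGCCGC, forms of the site named for the cell cycle factor E2F, were searched on both strands. They occurred in the regions of Ezh2 and Suz12 and in 2.26% of all start regions. In the lines for Ezh2 (chr6:47545008-47545037, minus strand, mm9) and Suz12 (chr11:79806378-79806407, plus strand) the word is in capitals. It begins at base 4 after the Ezh2 start and 219 bases before that of Suz12. The line for Cbx7 (chr15:79763077-79763106, minus strand) is the 30 bases before its RefSeq start, with the run of CG pairs in capitals. A match is a description of the letters and not of binding.
Ezh2: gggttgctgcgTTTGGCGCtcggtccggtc
Suz12: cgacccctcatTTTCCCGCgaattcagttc
Cbx7: tgagggaacactagggggtgtgCGCGCGtg

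Between the tissues, Eed, Jarid2 and Cbx7 were lower in FH, and no member was higher. Levels are RPKM, the tags whose midpoint lay in the merged exons of a gene per kb of exon and per 1000000 unique tags of a library, and differences are on the log2(RPKM + 1) scale as FH minus CCE. The limma test with Benjamini-Hochberg adjustment was made over 10306 genes whose mean RPKM exceeded 3 in CCE or FH. Of these 19.9% were higher and 34.8% lower in FH at an adjusted p under 0.05. Of the 8 members tested 3 were lower, with a median difference of -0.72 over the 8 against -0.34 over all genes tested. Ezh1 and Bmi1 lay under the limit of 3 RPKM in both tissues. Since that median was below 0, the split of calls over all genes depended on the scaling. It was 2056 higher and 3582 lower per unique tag, 3374 and 2274 per tag in protein-coding exons (median 0.06), and 2537 and 2533 with median ratio scaling (median -0.09). Eed, Jarid2 and Cbx7 kept their direction and call under these scalings and under every other alternative tried.

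**Figure D1:**
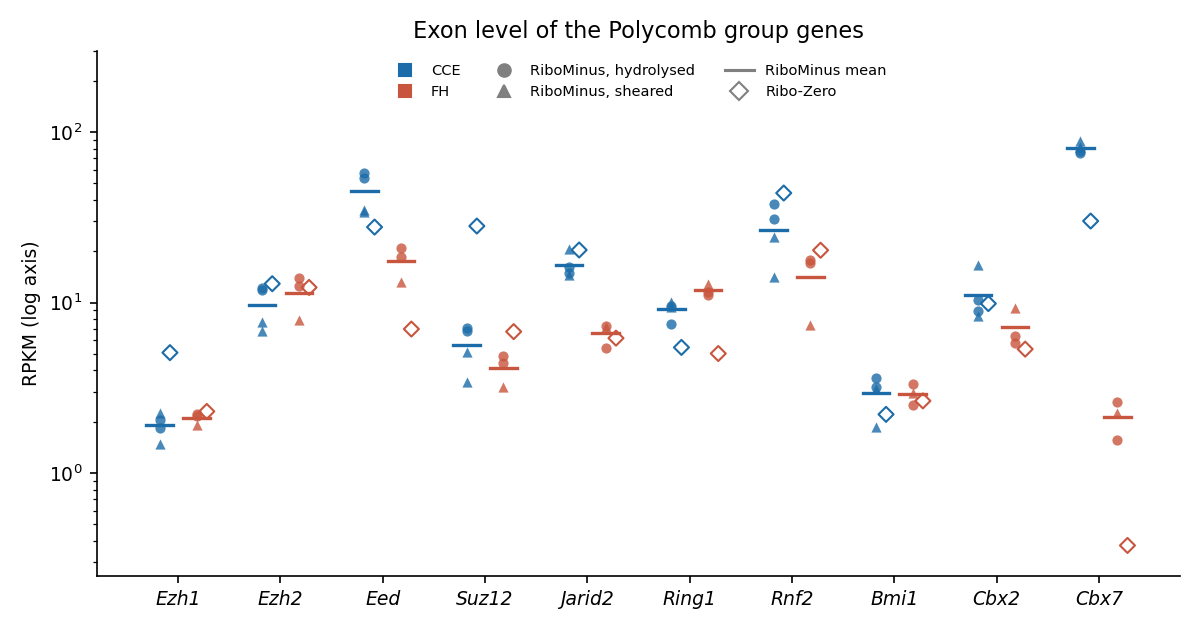
Exon levels of the 10 Polycomb group genes in RPKM on a log axis, with CCE in blue and FH in red. Circles are hydrolysed and triangles sheared RiboMinus preparations, bars their means and open diamonds the single Ribo-Zero libraries, and Cbx7 shows the widest gap between the tissues, at 75.81 to 88.35 RPKM in CCE against 1.56 to 2.63 RPKM in FH preparations.

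Per kb of exon, the members spanned a wide range of RiboMinus levels in CCE. Cbx7 led at 81.0 ± 5.63 RPKM (SD, n = 4), above Eed at 45.1 ± 12.5 RPKM without overlap of the preparations. Rnf2, Jarid2, Cbx2, Ezh2 and Ring1 followed at means of 26.8 down to 9.13 RPKM, each overlapping the next in that order. Ring1 lay above Suz12 at 5.62 ± 1.68 RPKM without overlap, and Bmi1 and Ezh1 were last at 2.95 and 1.90 RPKM. In the FH RiboMinus preparations the order ran from Eed at 17.5 ± 3.91 RPKM (SD, n = 3) through Rnf2, Ring1, Ezh2, Cbx2 and Jarid2 at 6.64 RPKM. A gap without overlap separated Jarid2 from Suz12 at 4.15 RPKM, below which Bmi1, Cbx7 and Ezh1 overlapped at 2.92, 2.14 and 2.09 RPKM. With coding exons alone the gap between Cbx7 and Eed in CCE closed to overlapping means of 77.9 and 61.5 RPKM, and a gap between Jarid2 and Ezh2 opened at 36.6 against 22.4 RPKM. In FH the lead of Eed was lost on that scale, where Rnf2 was first at 31.4 RPKM and Ring1, Ezh2 and Eed followed at 23.1, 22.9 and 22.4 RPKM with overlap. The order also differed by Ribo-Zero, where Rnf2 was first in both tissues (43.9 and 20.3 RPKM over merged exons), followed in CCE by Cbx7, Suz12 and Eed and in FH by Ezh2, Eed and Suz12.

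Ezh2 (chr6:47480273-47545340, minus strand, mm9, 20 exons), the main histone H3 lysine 27 methyltransferase of dividing cells, had exon levels that overlapped between the tissues. Its RPKM in CCE was 7.67 and 11.8 in the CCE1 sheared and hydrolysed preparations and 6.80 and 12.2 in those of CCE2. In FH it was 7.86 in FH1 sheared, 13.95 in FH1 hydrolysed and 12.5 in FH2 hydrolysed. The groups overlapped through the sheared FH preparation, the sheared preparations were the low ones in each tissue, and within either fragmentation method every FH value was above every CCE value. The difference was 0.23 ± 0.27 (SE, limma adjusted p = 0.493, 95% interval -0.38 to 0.84), which is 0.57 above the median of all genes. The merged Ezh2 model holds exons of retained-intron transcripts, and over coding exons alone the means were 22.4 RPKM in CCE and 22.9 RPKM in FH.

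Ezh1 (chr11:101052429-101087777, minus strand, 21 exons), the paralog of Ezh2 that is best known from cells that no longer divide, had the lowest RiboMinus mean of the members in both tissues, in FH within the range of Cbx7. By Ribo-Zero Bmi1 in CCE and Cbx7 in FH were below it. Its level was 1.49 to 2.24 RPKM over the CCE and 1.92 to 2.21 RPKM over the FH preparations, which overlap. Without a limit on low values the limma difference was 0.10 (adjusted p = 0.726). The ratio of Ezh2 to Ezh1 per kb was 4.95 in CCE and 5.32 in FH, a log2 difference of 0.10 whose sign changed when the CCE2 sheared preparation (-0.13) or the FH1 hydrolysed preparation (-0.02) was left out. An exact two-sided permutation test gave p = 0.8 (adjusted p = 0.8 over the 3 paralog pairs compared), where the smallest p that 4 preparations against 3 allow is 0.0571. Over coding exons alone the RiboMinus ratio was 8.57 in CCE and 9.22 in FH. In the Ribo-Zero libraries the ratio over merged exons was 2.54 in CCE and 5.34 in FH, with Ezh1 at 5.08 RPKM in CCE and 2.30 RPKM in FH.

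Eed (chr7:97103166-97129493, minus strand, 12 exons), whose protein reads the methyl mark and activates the enzyme, was among the 3 members that were lower in FH. The CCE preparations held 33.8 RPKM (CCE1 sheared), 57.6 RPKM (CCE1 hydrolysed), 34.8 RPKM (CCE2 sheared) and 54.0 RPKM (CCE2 hydrolysed). The FH preparations held 13.1 RPKM (FH1 sheared), 18.5 RPKM (FH1 hydrolysed) and 20.8 RPKM (FH2 hydrolysed). Every FH value was below every CCE value, and in both tissues the sheared preparations were the lowest. Eed fell by 1.30 ± 0.26 (SE, limma adjusted p = 0.00259), a mean 2.58-fold lower, and over 24 alternatives the difference ranged from -1.46 to -0.97.

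Suz12 (chr11:79806608-79847625, plus strand, 16 exons), the scaffold of PRC2, was at 5.15, 6.79, 3.44 and 7.09 RPKM in the CCE1 sheared and hydrolysed and CCE2 sheared and hydrolysed preparations. In FH it was at 3.21, 4.85 and 4.40 RPKM in FH1 sheared, FH1 hydrolysed and FH2 hydrolysed. The groups overlapped, with the CCE2 sheared preparation inside the FH range. The difference of -0.34 ± 0.25 (SE) did not pass (limma adjusted p = 0.276) and lay at the median of all genes. It passed when only hydrolysed preparations were used (-0.50, adjusted p = 0.00814) or fragmentation was a covariate (-0.42, adjusted p = 0.0264). In the Ribo-Zero libraries the gap was wider, at 28.1 RPKM in CCE and 6.75 RPKM in FH.

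Jarid2 (chr13:44824843-45017012, plus strand, 18 exons), a DNA-binding accessory subunit that helps to recruit PRC2, fell in FH by 1.19 ± 0.19 (SE, limma adjusted p = 0.000761), a mean 2.49-fold lower. Its RPKM in CCE was 14.6 (CCE1 sheared), 14.9 (CCE1 hydrolysed), 20.6 (CCE2 sheared) and 16.1 (CCE2 hydrolysed). In FH it was 7.19 (FH1 sheared), 5.43 (FH1 hydrolysed) and 7.29 (FH2 hydrolysed). The groups did not overlap, with the lowest value in CCE in a sheared and in FH in a hydrolysed preparation. Over 24 alternatives the difference ranged from -1.34 to -0.90.

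Ring1 (chr17:34157737-34161625, minus strand, 7 exons) and Rnf2 (chr1:153316536-153347953, minus strand, 7 exons) encode the paralogous ubiquitin ligases of PRC1. Ring1 was at 9.40, 9.58, 10.0 and 7.51 RPKM in the CCE1 sheared and hydrolysed and CCE2 sheared and hydrolysed preparations, and at 12.9, 11.5 and 11.1 RPKM in FH1 sheared, FH1 hydrolysed and FH2 hydrolysed. With preparations as numbered, every FH value was above every CCE value, but the single libraries overlapped. The difference of 0.34 ± 0.17 (SE) did not pass (limma adjusted p = 0.115), nor with the hydrolysed numbers crossed at Nijmegen (0.29, adjusted p = 0.315). It passed per tag in exons (0.69, adjusted p = 0.00868), with median ratio scaling (0.57, adjusted p = 0.0322), with fragmentation as a covariate (0.37, adjusted p = 0.0201) and in hydrolysed preparations only (0.37, adjusted p = 0.0388). By Ribo-Zero the level of Ring1 was 5.46 RPKM in CCE and 5.02 RPKM in FH, a ratio of 0.921 with a counting interval of 0.823 to 1.03. The ratio was 0.885 (0.791 to 0.992) without mitochondrial tags in the scale, 0.846 (0.739 to 0.969) over coding exons and 0.695 (0.61 to 0.792) with repeated positions counted once. The Ribo-Zero log2 ratio of -0.12 lay above the median of all genes there (-0.65), as the RiboMinus difference lay above its own.

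Rnf2 was at 24.1, 30.9, 14.2 and 38.1 RPKM in the CCE1 sheared and hydrolysed and CCE2 sheared and hydrolysed preparations, and at 7.34, 17.8 and 17.0 RPKM in FH1 sheared, FH1 hydrolysed and FH2 hydrolysed. The CCE2 sheared preparation was within the FH range, and the sheared FH preparation was the lowest of all. The difference of -0.89 ± 0.38 (SE) did not pass (limma adjusted p = 0.077). It was -1.06 (adjusted p = 0.00049) with fragmentation as a covariate and -1.16 (adjusted p = 0.0218) without the CCE2 sheared preparation, and it also passed in hydrolysed preparations only and with repeated positions counted once. It was -0.51 (adjusted p = 0.25) without the FH1 sheared preparation, -0.57 (adjusted p = 0.292) per tag in exons and -0.66 (adjusted p = 0.151) with median ratio scaling. With the preparation number as a block it did not pass (adjusted p = 0.116), and with the title number of single libraries as a block, where libraries of the same cDNA count as replicates, it did (adjusted p = 0.0231). The ratio of Rnf2 to Ring1 was 2.77 in CCE and 1.11 in FH, a log2 difference of -1.33 (exact two-sided permutation p = 0.171, adjusted p = 0.257). Over coding exons alone the ratios were 3.31 and 1.26. The Ribo-Zero libraries gave ratios of 8.05 and 4.03 over merged exons.

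Bmi1 (chr2:18598645-18608256, plus strand, 10 exons), the RING partner that stabilises the ligase and a repressor of the Ink4 locus, was low in both tissues. It was at 3.12, 3.22, 1.86 and 3.59 RPKM in the CCE1 sheared and hydrolysed and CCE2 sheared and hydrolysed preparations, and at 2.93, 2.51 and 3.32 RPKM in FH1 sheared, FH1 hydrolysed and FH2 hydrolysed. The groups overlapped and the limma difference without a limit on low values was 0.01 (adjusted p = 1, 95% interval -0.47 to 0.49). These levels rest on 156 tags in CCE and 116 in FH. Of its exon positions 76.4% are unique for 36-mers, the lowest share of the members, and since only unique tags were kept its level is understated relative to the others.

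Cbx2 and Cbx7 encode alternative readers of the methyl mark in PRC1, and Cbx7 is known as the one that prevails in embryonic stem cells. Cbx7 (chr15:79746237-79801549, minus strand, 6 exons) was at 88.4 RPKM in CCE1 sheared, 75.8 RPKM in CCE1 hydrolysed, 82.2 RPKM in CCE2 sheared and 77.4 RPKM in CCE2 hydrolysed. In FH it was at 2.24 RPKM in FH1 sheared, 1.56 RPKM in FH1 hydrolysed and 2.63 RPKM in FH2 hydrolysed. The groups stood far apart, and the 3978 tags of the CCE preparations compare with 81 in FH. Cbx7 fell by 4.72 ± 0.18 (SE, limma adjusted p = 3.57e-07), a mean 37.8-fold lower, and over 24 alternatives the difference ranged from -5.24 to -4.45.

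Cbx2 (chr11:118884276-118892584, plus strand, 5 exons) was at 8.34, 10.3, 16.7 and 8.86 RPKM in the CCE1 sheared and hydrolysed and CCE2 sheared and hydrolysed preparations, and at 9.33, 5.82 and 6.36 RPKM in FH1 sheared, FH1 hydrolysed and FH2 hydrolysed. The groups overlapped, with the highest value of each tissue in a sheared preparation. Its difference of -0.54 ± 0.26 (SE) did not pass (limma adjusted p = 0.115), although it passed in hydrolysed preparations only (-0.58, adjusted p = 0.00442). The ratio of Cbx2 to Cbx7 per kb was 0.131 in CCE and 3.35 in FH, so Cbx7 was the more abundant of the pair in every CCE preparation and Cbx2 in every FH preparation. This 25.5-fold change of the ratio had an exact two-sided permutation p of 0.0571, the smallest possible here (adjusted p = 0.171). Over coding exons alone the RiboMinus ratio was 0.268 in CCE and 5.24 in FH. In the Ribo-Zero libraries the ratio over merged exons was 0.328 in CCE and 14.2 in FH.

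**Figure D2:**
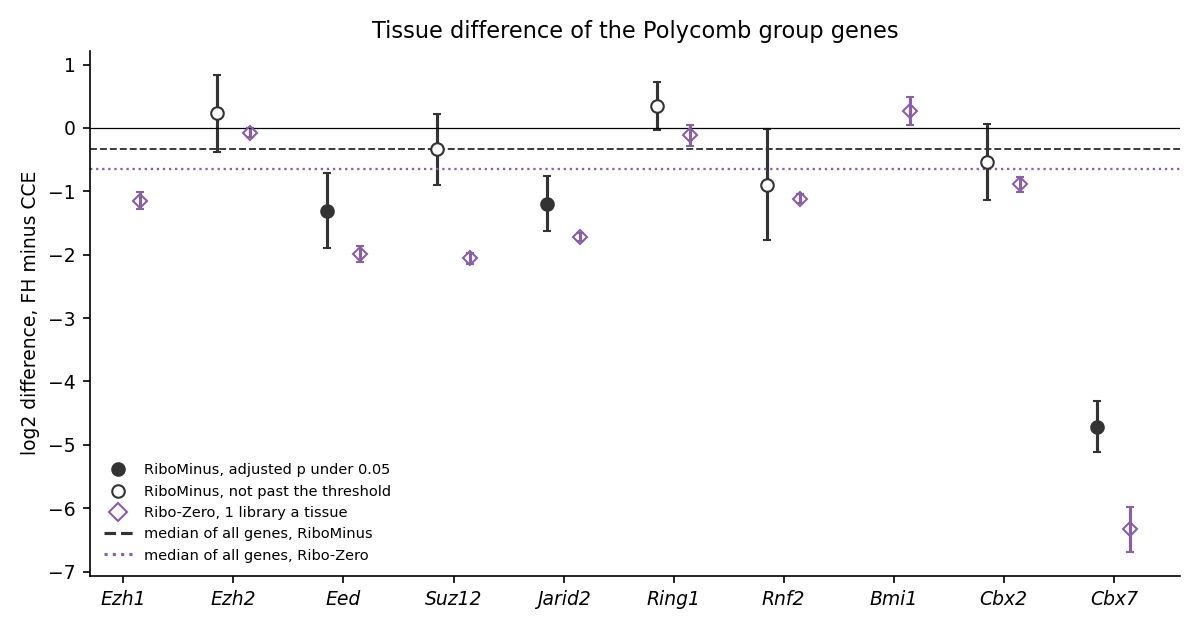
Tissue difference of each member as FH minus CCE on a log2 scale. Black circles are limma differences from RiboMinus with 95% intervals, filled where the adjusted p was under 0.05, purple diamonds are Ribo-Zero ratios with counting intervals, and horizontal lines are the medians of all genes at -0.34 and -0.65; Eed, Jarid2 and Cbx7 are the filled circles, and Cbx7 lies lowest with both kits.

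The Ribo-Zero libraries came from RNA described as a biological replicate and reached higher depth, with 1 library of each tissue, so no test was possible and intervals cover counting error only. Over 10057 genes 12.1% were more than 2-fold higher and 32.9% more than 2-fold lower in FH, with a median log2 ratio of -0.65. Of the 10 members 6 were more than 2-fold lower and 0 higher. Cbx7 was at 30.1 RPKM (3272 tags) in CCE and 0.376 RPKM (69 tags) in FH, an 80.0-fold ratio with an exact 95% interval of 63.0 to 103.0. With repeated positions counted once the ratio was 51.9, and over coding exons alone it was 51.4.

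Suz12 was 4.16-fold lower in FH by Ribo-Zero (3.93 to 4.41) and Eed 3.96-fold (3.64 to 4.32), at 27.7 RPKM in CCE and 6.99 RPKM in FH. Jarid2 was 3.29-fold lower, at 20.3 and 6.19 RPKM. Ezh1 was 2.21-fold lower (2.02 to 2.42), at 5.08 and 2.30 RPKM, while its RiboMinus means were 1.90 and 2.09 RPKM. Rnf2 was 2.17-fold lower, at 43.9 and 20.3 RPKM, and Cbx2 1.85-fold, at 9.86 and 5.33 RPKM. Ezh2 was at 12.9 RPKM in CCE and 12.3 RPKM in FH, a ratio of 0.951 (0.903 to 1.0). The FH over CCE ratio of Bmi1 was 1.20 (1.03 to 1.40), at 2.21 and 2.65 RPKM. With repeated positions counted once the ratio of Bmi1 turned to 0.789 (0.66 to 0.944), while that of Ezh2 moved to 0.72 (0.67 to 0.774). That setting scales to distinct positions, 51.4% of unique tags in the CCE and 62.6% in the FH library. The scale therefore changed for every gene.

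The kits gave different levels of the same gene in the same tissue. Against hydrolysed RiboMinus preparations, 39.2% of 9818 genes in CCE and 45.0% of 10046 genes in FH differed more than 2-fold in Ribo-Zero libraries, where RNA, depth and tag length differed too and cannot be told apart. In CCE 4 of the 10 members did, Suz12 at 4.06-fold and Ezh1 at 2.60-fold higher by Ribo-Zero, and Cbx7 and Eed lower with ratios of 0.393 and 0.495. In FH 3 did, all lower by Ribo-Zero, namely Cbx7 with a ratio of 0.176, Eed with 0.355 and Ring1 with 0.447. Ezh2 gave close levels in both kits, with ratios of 1.08 in CCE and 0.933 in FH.

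Members were also compared between the fragmentation methods. At an adjusted p under 0.05, 46.0% of the 10306 genes differed between hydrolysed and sheared RiboMinus preparations in a limma fit with the tissue as a term. The fit did not pair the preparations made from the same depleted RNA. Of the 8 members tested 4 were higher after RNA hydrolysis, a share near that of all genes. These were Rnf2 (0.97 ± 0.18 SE, limma adjusted p = 0.00282), Ezh2 (0.67 ± 0.12, adjusted p = 0.00204), Eed (0.63 ± 0.11, adjusted p = 0.00215) and Suz12 (0.53 ± 0.15, adjusted p = 0.0176). Jarid2, Ring1, Cbx2 and Cbx7 had differences of -0.39 to -0.13 that did not pass. FH has a single sheared preparation, and within the CCE preparations alone none of the 4 passed, with differences of 0.60 to 0.85 and adjusted p-values of 0.0673 to 0.139.

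Of the members, Ezh2 had the largest increase of intron tags in FH with the libraries of both locations together. RNA without selection for polyA tails includes unspliced transcripts. Intron tags were counted outside the exons of a gene and outside the span of every other annotated gene. The intron level of Ezh2 was 0.471 ± 0.193 RPKM (SD, n = 4, range 0.273 to 0.686) in CCE and 2.07 ± 0.565 RPKM (SD, n = 3, range 1.48 to 2.61) in FH, while its exon ranges overlapped. The ranges did not overlap, and the FH mean was 4.38-fold higher. The difference was 4.34-fold with Vienna-IMP libraries alone and 4.82-fold with those of Nijmegen, where Bmi1 was close to it at 4.76-fold. Intron tags were higher in FH for many genes, so these values were read against all genes: over 8080 genes a limma fit of the intron level called 28.7% higher and 3.35% lower in FH, with a median of 0.43.

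For the Ezh2 intron level that fit, chosen after seeing the data, gave 1.95 ± 0.30 (SE, limma adjusted p = 0.000291). The rise spread along the gene. Of 12 introns with at least 10 tags 11 were denser in FH, and in the Ribo-Zero libraries 15 of 16 were. The Ribo-Zero intron levels were 0.742 RPKM in CCE and 2.46 RPKM in FH. The RiboMinus count was not particular to Ezh2, since Jarid2 had 11 of 12 and Suz12 6 of 6, while Eed had 3 of 10 and Cbx7 0 of 5. By Ribo-Zero 7 of 15 Jarid2 introns were denser in FH. The annotated span of the transcript Gm17629, which overlaps Ezh2, was left out of these intron counts. Of the other members Suz12 (1.13, limma adjusted p = 0.0231) and Bmi1 (1.05, adjusted p = 0.0342) also had higher intron levels in FH by this fit. The exact two-sided permutation test of the intron level, which cannot pass here, gave p = 0.0571 for Ezh2 and Suz12 (adjusted p = 0.143 over the 10 members) and p = 0.114 for Bmi1 (adjusted p = 0.163). The Bmi1 preparations overlapped, at 0.328 to 0.933 RPKM in CCE and 0.751 to 1.27 RPKM in FH. By Ribo-Zero the Suz12 introns were at 1.21 RPKM in CCE and 1.32 RPKM in FH, and 4 of 8 were denser in FH.

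Relative to exon tags per kb, intron tags of Ezh2 were 4.81 ± 0.94% in CCE and 18.2 ± 1.06% in FH (SD, exact two-sided permutation p = 0.0571, adjusted p = 0.114 over the 10 members). No member passed this test, since 0.0571 is its smallest p. The limma fit over the 8080 genes called 42.3% of ratios higher and 0.755% lower in FH with a median of 0.94, and 6 of the 9 members tested were higher. These were Jarid2 (1.94), Ezh2 (1.93), Suz12 (1.75), Rnf2 (1.32), Cbx2 (1.29) and Eed (1.15), at limma adjusted p-values from 0.00121 to 0.0287. The exon levels of Eed and Jarid2 fell in FH, while their intron levels differed by -0.17 (limma adjusted p = 0.771) and 0.54 (adjusted p = 0.189). The median intron difference of all genes was 0.425, and the Eed ratio of 1.15 lay near the median ratio of 0.94.

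Cbx7 went down in exons and introns together. Its intron level was 2.80 ± 0.643 RPKM (SD, n = 4) in CCE and 0.0724 ± 0.018 RPKM (SD, n = 3) in FH, a mean 38.7-fold lower that fell by 4.05 in the limma fit (adjusted p = 2.62e-07). All 5 introns were denser in CCE with either kit. Over the whole span, intron tags relative to exon tags were 3.51% in CCE and 3.46% in FH, without a difference beyond the spread (exact two-sided permutation p = 1). With Nijmegen libraries alone they were 3.35% and 7.12%, and in the Ribo-Zero libraries 5.04% and 10.0%. The FH value rests on 35 intron tags. Tags beyond the 5 introns of the coding transcript, nearly all from CCE, enter these ratios. The ratio over the 5 introns alone was not computed.

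**Figure D3:**
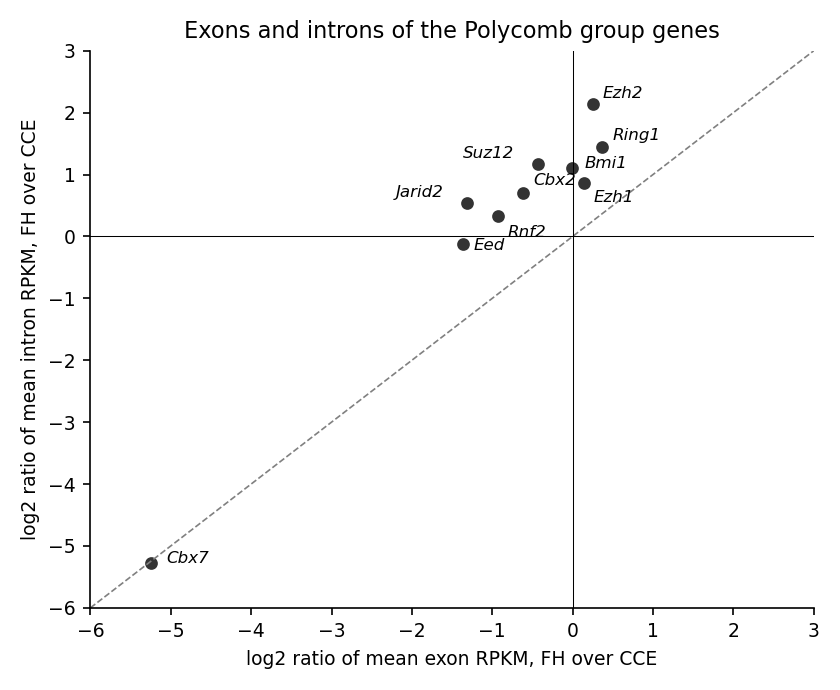
Log2 ratio of mean RPKM in FH over CCE, for exons on the horizontal and introns on the vertical axis, each point 1 of the 10 Polycomb group genes from RiboMinus preparations, with equal ratios on the dashed line. Introns are the gene span outside exons and outside other genes. With its whole span counted, CCE tags beyond the introns of its coding transcript included, Cbx7 lies on that line at the lower left. Ezh2 lies highest, with a 4.38-fold intron ratio at an exon ratio of 1.19.

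Tags were spread unevenly along some of the transcripts, which bears on how far exon levels compare between genes. Over sheared and hydrolysed libraries together, Bmi1 had 58.8% of its RiboMinus tags in CCE and 61.3% in FH within its first exon, which is 12.6% of the cDNA, and by Ribo-Zero 38.7% and 25.2%. Unique tags could fall on 76.4% of Bmi1 exon positions for 36-mers and 84.4% for 51-mers. Where the other positions lie was not examined. In Eed the first exon, 27.7% of the cDNA, held 48.3% and 45.1% of RiboMinus tags. That of Cbx7, 5.67% of the cDNA, held 0.254% in CCE and 5.0% (4 tags) in FH, and by Ribo-Zero 0.562% and 2.9%. By RiboMinus the tag density of the 3′UTR relative to coding exons was lowest in Eed, at 0.0793 in CCE and 0.0805 in FH, and highest in Ezh1, at 1.46 and 1.44. The CCE preparations of Eed (0.0256 to 0.153) and Bmi1 (0.0565 to 0.181) overlapped. In hydrolysed CCE preparations alone Bmi1 was lower, at 0.112 against 0.131 for Eed. Bmi1 (0.115 and 0.251), Rnf2 (0.147 and 0.159) and Jarid2 (0.204 and 0.176) were also low, while Cbx7 was at 0.92 in CCE (0.696 to 1.11 over the preparations) and 0.87 in FH (0.363 to 1.35).

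The 3′UTR density of no member passed the test between the tissues, with exact two-sided permutation p-values of 0.229 to 1.0 and adjusted p = 1.0 over the 10 members. By Ribo-Zero the densities were higher for Eed (0.351 and 0.318), Jarid2 (0.512 and 0.561), Rnf2 (0.426 and 0.483) and Bmi1 (0.812 and 1.04), the highest in FH. For Ezh1 they were 1.1 and 0.84. For Cbx7 they were 1.07 and 0.816.

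**Figure D4:**
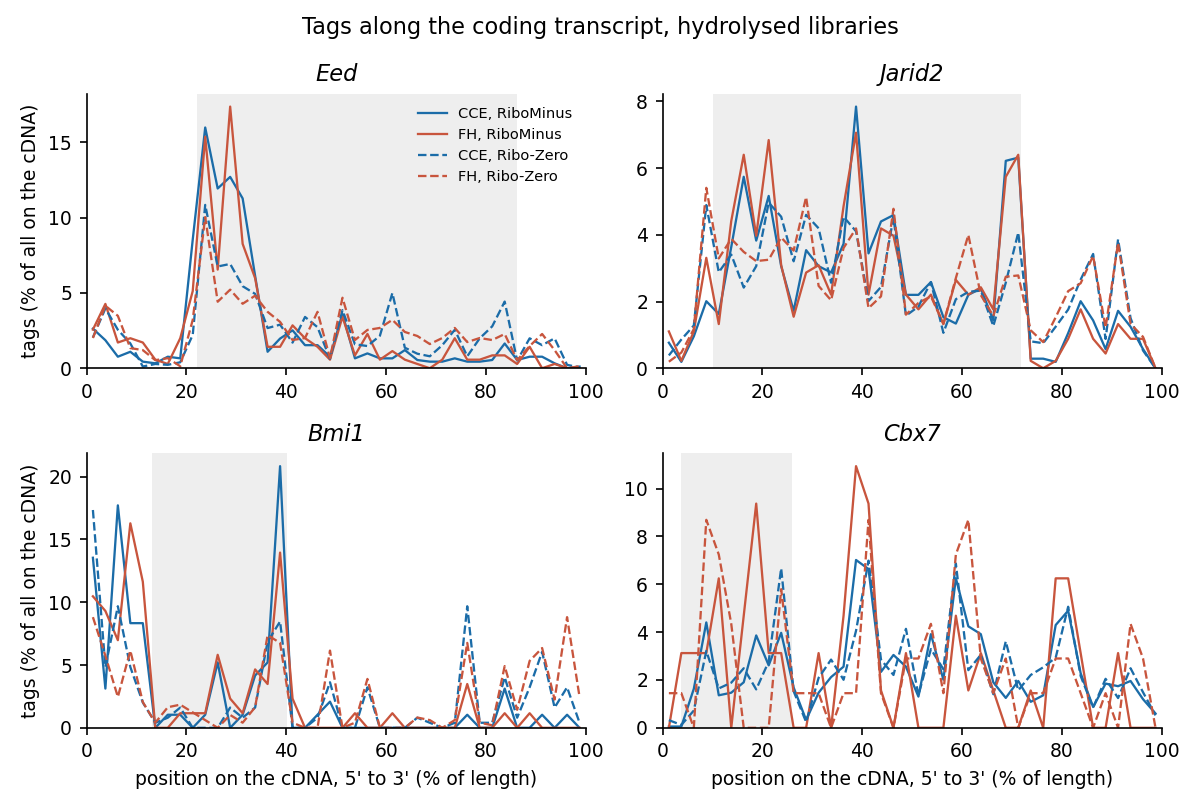
Share of tags (%) along the cDNA from 5′ to 3′ (% of length) of Eed, Jarid2, Bmi1 and Cbx7, with CCE in blue and FH in red, hydrolysed RiboMinus libraries as solid and Ribo-Zero libraries as dashed lines, and the coding part shaded in grey. In hydrolysed RiboMinus libraries Bmi1 has its tags near the 5′ end, with 54.2% of those of CCE in the first 25% of the cDNA. In the FH Ribo-Zero library that share is 30.9%, with 38.9% in the last 25%. Cbx7 in CCE has 21.3% in the first 25% and 21.1% in the last 25%, but few tags in its first exon.

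Other genes of the pathway were read from the same fit, where 19.9% of all genes were higher and 34.8% lower in FH. Of 6 other PRC2 subunits tested (7 listed) 1 was higher and 3 were lower, with a median of -0.58, and under both other scalings 2 were higher and 2 lower. Epop, a subunit that binds elongin, fell by 2.30 (limma adjusted p = 0.000451), and the histone chaperone Rbbp7 by 1.96 (adjusted p = 7.53e-05). Phf1, a Polycomb-like protein, was 0.81 higher (adjusted p = 0.00247), but its Ribo-Zero levels were 2.98 RPKM in CCE and 2.84 RPKM in FH.

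Of 20 other PRC1 subunits tested (22 listed) 3 were higher and 4 lower, with a median of -0.10. This balance turned with the scaling, to 6 higher and 3 lower per tag in exons and 5 higher and 3 lower with median ratio scaling, with medians of 0.21 and 0.11. The chromobox protein Cbx6 was 1.61 higher (limma adjusted p = 0.000122), at 17.9 RPKM in CCE and 56.5 RPKM in FH, and Auts2, a PRC1 subunit of neurons, was 1.52 higher (adjusted p = 0.000399). Pcgf5, a paralog of Bmi1, fell by 1.63 (adjusted p = 0.000284) and L3mbtl2 by 1.04 (adjusted p = 0.000645). Cbx6 changed opposite to Cbx7, and by Ribo-Zero it was at 4.51 RPKM in CCE and 10.8 RPKM in FH.

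Among 7 genes listed for the removal of either histone mark 1 was lower, the H2A deubiquitinase Bap1. It fell by 0.68 (limma adjusted p = 0.0199) and did not pass per tag in exons (adjusted p = 0.181) or with median ratio scaling (adjusted p = 0.169). Of 12 trithorax group genes, which counter Polycomb silencing, 1 was higher and 3 lower with a median of -0.20. Kmt2c was 0.91 higher (adjusted p = 0.0123), Ash2l fell by 1.89 (adjusted p = 0.00147) and Rbbp5 by 0.77 (adjusted p = 0.0436). Per tag in exons and with median ratio scaling Rbbp5 (adjusted p = 0.178 and 0.0843) and Wdr5 (0.486 and 0.19) did not pass, which left 1 gene higher and 1 lower with medians of 0.14 and 0.04.

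Both genes of the Ink4 locus, cell cycle inhibitors known as Polycomb targets, were lower in FH beside Cbx7 and beside a Bmi1 difference of 0.01. Cdkn2a was at 152 RPKM in CCE from 2252 tags and had no tag in FH, so it was at least 571-fold lower against a floor of 3 tags over the group. Cdkn2b fell from 89.9 RPKM to 0.990 RPKM (limma adjusted p = 6.18e-07). Of 11 genes of cell division tested (12 listed) 8 were lower and 0 higher, with a median of -1.31, led by the replication helicase subunits Mcm5 (-2.07, adjusted p = 3.87e-05) and Mcm2 (-1.89, adjusted p = 0.000307). Ezh2, known as a gene often transcribed with this class, had a difference of 0.23 beside them. The parts that cell division and the cell types named above had in the members' differences were not tested.

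**Figure D5:**
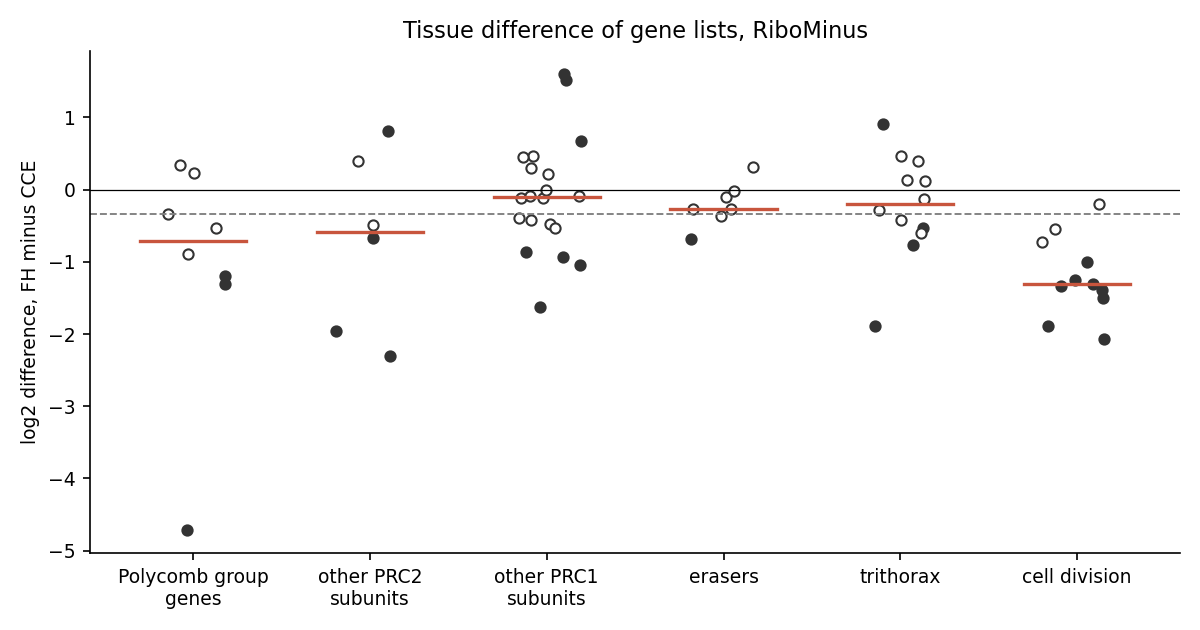
Tissue differences (log2, FH minus CCE) of the genes tested in each list, each point 1 gene of the RiboMinus fit, filled where the adjusted p was under 0.05, each red bar the median of a list and the dashed line the median of all genes at -0.34. Of the lists drawn, cell division has the lowest median, at -1.31, and Cbx7 lies far below the other Polycomb group genes.

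The genes whose levels were most like those of 4 members over the 14 RiboMinus libraries were ranked by Pearson's r of log2(RPKM + 1), given as a description since libraries share cDNA, fragmentation and tissue. For Cbx7 they were Plat (r = 0.996), Vcl (0.995) and Icam1 (0.994), all split by tissue as Cbx7 is. For Ezh2 they were Sh3glb1 (0.97), Mme (0.96) and Vamp4 (0.947), and for Cbx2 Ubr4 (0.975), Setd1a (0.973) and Ptpn23 (0.967). For Ezh1 no gene came as close, with Pam (0.702), C78339 (0.697) and Sfpq (0.655) first.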

How the data were processed

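Tag positions deposited for 14 RiboMinus and 2 Ribo-Zero libraries served as the data. The authors aligned tags to mm9 (Bowtie, per the submitters' notes), kept unique ones and deposited the start and end of each tag, with no count or RPKM per gene. Tags of 36-mer reads (RiboMinus) or 51-mer reads (Ribo-Zero) were assigned by midpoint to merged exons of GENCODE M1, and RPKM was computed over all unique tags. The protocol text of sheared samples describes hydrolysis. Fragmentation was taken from the fragmentation labels. For FH2 hydrolysed libraries 2 rounds of depletion are given, for others 1. Extra lanes and combined samples were not analysed here.

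Tags of both locations were summed for each cDNA preparation, since libraries of 1 cDNA are not replicates. Genes above a mean RPKM of 3 in either tissue were tested with limma 3.58.1 (R 4.3.3) on log2(RPKM + 1) with a trended variance, checked on simulated data. Paralog ratios, intron ratios and 3′UTR densities were compared with exact permutation tests. The 95% intervals of limma differences are those of the fit over preparations. Intervals of Ribo-Zero ratios are exact at 95% and cover counting error only, since tags with 1 start may be copies. Tags were counted with numba 0.67.0 and scipy 1.17.1 under Python 3.11.15, tabulated with pandas 2.3.3 and numpy 2.4.6, and plotted with matplotlib 3.10.9.

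The members were chosen by name and not by a value, but they, the lists and the rules were chosen with earlier results of these data known. All 10 members are named, with the 2 largest called changes in each direction of every pathway list and the 3 genes most like 4 members. The labels number preparations 1 and 2. As a check, log2 ratios of preparation 1 to 2 were correlated over 10306 genes, with r = -0.147 between the tissues. Between the locations r was -0.45 for CCE hydrolysed, -0.408 for FH hydrolysed and 0.447 for CCE sheared libraries, so the hydrolysed numbers may be crossed at 1 location. The numbers do not pair the tissues. In exons, tags of Gm17629, Gm16706 and SNORA61, which overlap Ezh2, Suz12 and Jarid2, cannot be told apart from theirs without strand. Over exon positions covered by no other gene the tissue differences were 0.23 for Ezh2, -0.32 for Suz12 and -1.19 for Jarid2, close to those of the main fit.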

Additional observations from a re-analysis of the deposited data

Results flagged for a closer look

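For each member the CCE preparations, the CCE libraries and the FH libraries were examined for a sample far from the others (30 groups). Of these 2 had one, where chance gives about 1 in 20 for independent groups. The groups are not independent, since the CCE preparations are sums of the CCE libraries. Ring1 was at 5.48 RPKM (34 tags) in the CCE2 hydrolysed library of Nijmegen, while the other CCE libraries lay between 8.45 and 10.8 RPKM. Cbx7 was at 0.330 RPKM (2 tags) in the FH1 hydrolysed library of Nijmegen, while the other FH libraries lay between 1.91 and 2.77 RPKM.

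The sign of the Ring1 difference was not the same with both kits. With preparations as numbered, every FH preparation was above every CCE preparation by RiboMinus. By Ribo-Zero FH was at 5.02 RPKM and CCE at 5.46 RPKM, a ratio of 0.921 (counting interval 0.823 to 1.03). The Ribo-Zero ratio was 0.695 to 0.885 under 3 alternatives, with intervals below 1. The lowest, with repeated positions counted once, was scaled to distinct positions and not to all unique tags. With both kits Ring1 lay above the median log2 difference of all genes, -0.34 by RiboMinus and -0.65 by Ribo-Zero. This difference between the kits was not tested, since each Ribo-Zero tissue has 1 library.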

How the results depend on the processing

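For 57 results 396 alternatives were computed. Eed, Jarid2 and Cbx7 passed in all 24 alternatives of the tissue fit, those without the FH1 hydrolysed Vienna-IMP library, single locations and repeated positions counted once included. Over all genes the count higher in FH was 3356 without a limit on low values, 934 with RPKM over 10 and 3374 per exon tag, and the count lower was 2378 and 2274 under the last 2. With each preparation left out, 1791 to 2048 genes were higher, 2930 to 3744 lower, and 3 to 4 members lower. Among the members 1, Ring1, was higher per exon tag, with median ratio scaling, with fragmentation as a covariate and in hydrolysed preparations only, and 5 and 6 were lower under the last 2, where 5055 of 10306 and 5296 of 10405 genes were lower. The cause was not tested. Between fragmentations 4 members passed, and 0 in CCE alone, where fewer preparations remain.

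With each preparation left out the log2 difference of Ezh2 to Ezh1 ranged from -0.13 to 0.29, of Cbx2 to Cbx7 from 4.52 to 4.91 and of Rnf2 to Ring1 from -1.65 to -0.85. For intron ratios 6 members passed by limma and 0 by the exact test. Over its whole span, tags beyond the introns of the coding transcript included, the log2 ratio of Cbx7 was -0.15. It was 0.13 in Nijmegen libraries and 0.034 by limma. In hydrolysed preparations the 3′UTR difference changed sign for Ezh1 (0.097), Eed (-0.01), Suz12 (0.076), Rnf2 (-0.037) and Cbx2 (-0.03), in a test of 2 preparations against 2 that cannot go below an exact p of 0.333.

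With the preparation number as a replicate block 1927 genes were higher and 3177 lower, with the same 3 members, and with the title number as a block 2120 and 4123, with Rnf2 added. These numbers do not pair the tissues. Depth limits Bmi1, Ezh1 and Cbx7 in FH most.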
